A study of Mus musculus with 12 samples.

Results

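The 10 genes described here are the transcription factor gene Nfe2l2, 7 genes of antioxidant enzymes and the metallothionein genes Mt1 and Mt2, taken by symbol from the 53707 genes of the deposited table. All 10 had higher mean levels in mouse retinal explants kept with 5 mM glucose than in those kept with 25 mM glucose, but no member passed an FDR of 0.05. On the deposited gene values, the glutathione and thioredoxin genes Gclm and Txnrd1 and the heme oxygenase gene Hmox1 had the lowest ratios. Their fitted levels at 25 mM were 0.462, 0.467 and 0.391 times those at 5 mM. For Nfe2l2 and the enzyme genes the difference lay mostly in the first of 2 batches of libraries. Mt1 and Mt2 took opposite directions in the 2 batches. No gene passed an FDR of 0.05 in a test of the difference between batches.

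NRF2, the protein made from Nfe2l2, is held at low levels by KEAP1, which presents it for degradation. When electrophiles or oxidants modify KEAP1, NRF2 enters the nucleus, pairs with a small MAF protein and binds antioxidant response elements near genes of glutathione synthesis, thioredoxin reduction, heme breakdown and quinone reduction, where BACH1 competes with it. Metallothioneins are small cysteine-rich proteins that bind zinc and copper, and their genes are driven through metal response elements by the zinc-sensing factor MTF1 as well as by glucocorticoids and oxidative stress. In the retina, these systems act in glia, vessels and neurons that live with intense light, high oxygen use and rapid glycolysis.

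The explants were retinas of wild-type C57BL/6J mice at 28 days of age, freed of sclera and pigment epithelium and cultured for 48 hours in Neurobasal-A medium with either glucose concentration. Both groups received the same B27 and N2 supplements and antibiotics. Each group held 3 biological replicates with 2 technical replicates each, 12 libraries in all, and technical replicates 1 and 2 carried the batch labels 1 and 2. The sources used here do not say how many animals or retinas made up a replicate, so the p-values measure the spread between these samples only.

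Library totals lay between 14815285 and 36692484 estimated counts, and the mitochondrial share between 5.91% and 15.4%, the lowest total and the highest share being those of the first library of 25 mM replicate 2. The 2 libraries of a sample differed beyond counting noise, with a chi-square per degree of freedom of 48.1 to 155 (median 68.2). Libraries of different samples in the same group gave 27.6 to 249 (median 115), so the 2 ranges overlapped. Rod marker genes were present in every sample. Of these, 6 of 10 rose at 25 mM at an FDR under 0.05 by edgeR, against 1.47% of all genes (rod median log2 difference 1.09). In the second batch alone 0 of the 10 passed, as did 0 of all 18811 genes tested. The rod median was 1.15 there and 1.16 in the first batch alone. Genes of the pigment epithelium and of blood were near 0, with Rpe65 at or below 0.0904 CPM (counts-per-million) in every sample. The RNA is that of whole tissue, in which fewer cells of a type and less RNA per cell cannot be told apart.

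Values below are CPM with the technical replicates of a sample summed and scaled by TMM, and log2 differences are 25 mM against 5 mM with their standard errors. Gene tests are the quasi-likelihood test of edgeR with Benjamini-Hochberg adjustment over 21061 genes. An FDR under 0.05 was met by 1.98% of all genes in either direction and by 0 of the 10 members. Of the members, 5 had an unadjusted p under 0.05, all with lower levels at 25 mM, against 15.5% of all genes. In 5 members each 25 mM sample lay below each 5 mM sample, against 15.8% of all genes. The median log2 difference of the members was -0.55, beside -0.01 over all genes tested. DESeq2, run on the same counts, called 3 members lower, Hmox1, Gclm and Txnrd1, where it called 9.54% of all genes lower.

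Nfe2l2 (ENSMUSG00000015839, chromosome 2, 75675513 to 75704641, minus strand, GRCm38) measured 182, 169 and 189 CPM at 5 mM and 91.8, 151 and 169 CPM at 25 mM. The groups did not overlap by a narrow margin, and 25 mM replicate 1 stood well below the other samples. The log2 difference was -0.39 ± 0.23 (SE, n = 3 and 3; edgeR, FDR = 0.29), and the exact permutation p was 0.1, the smallest that 3 samples against 3 can give.

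The first step of glutathione synthesis joins glutamate to cysteine and is carried out by the ligase whose catalytic part is encoded by Gclc and whose modifier part is encoded by Gclm. Gclc (chromosome 9, 77754535 to 77794485, plus strand) measured 164, 166 and 179 CPM at 5 mM and 103, 142 and 159 CPM at 25 mM. The groups lay close to each other without overlap, with a log2 difference of -0.33 ± 0.19 (edgeR, FDR = 0.279). Gclm (chromosome 3, 122245557 to 122270732, plus strand) measured 178, 193 and 224 CPM at 5 mM and 47.7, 109 and 118 CPM at 25 mM. Its groups were far apart, with a log2 difference of -1.11 ± 0.32 (edgeR, unadjusted p = 0.00773, FDR = 0.0809). The exons of Gclm share 296 bases with Gm17494 on the other strand and 244 bases with the pseudogene Gm6061 on the same strand. Reads of these genes may be divided uncertainly, and the strand setting of the counting, which bears on Gm17494, is not given in the sources used here. Over all 12 libraries Gm17494 held 1160.6 counts and Gm6061 580.3, while the lowest sample of Gclm, 25 mM replicate 1, held 2059.

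Gsr (chromosome 8, 33652523 to 33698163, plus strand), the reductase that regenerates glutathione from its oxidized form, measured 50.9, 49.5 and 44.5 CPM at 5 mM. At 25 mM it measured 20.3, 27.5 and 39.5 CPM, each below all 5 mM samples. The log2 difference was -0.73 ± 0.25 (edgeR, unadjusted p = 0.0186, FDR = 0.11). Of the 3 glutathione genes, Gclm had a more negative log2 difference than Gsr and Gclc on these gene values. The difference between genes was not tested. With the deposited transcript counts summed per gene, the order of Gclm (-0.87) and Gsr (-0.91) was reversed.

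Txnrd1 (chromosome 10, 82833951 to 82897712, plus strand) encodes the cytosolic thioredoxin reductase, which keeps thioredoxin in its reduced form with electrons from NADPH. It measured 313, 455 and 461 CPM at 5 mM and 114, 205 and 255 CPM at 25 mM. The groups did not overlap, and the log2 difference was -1.10 ± 0.31 (edgeR, unadjusted p = 0.00663, FDR = 0.0768), the lowest p of the 10 members. Srxn1 (chromosome 2, 152105516 to 152111376, plus strand), the sulfiredoxin that repairs overoxidized peroxiredoxins, measured 347, 467 and 482 CPM at 5 mM and 284, 299 and 382 CPM at 25 mM. Here 25 mM replicate 3 lay above 5 mM replicate 1, and the log2 difference was -0.43 ± 0.21 (edgeR, FDR = 0.207).

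Hmox1 (chromosome 8, 75093621 to 75100589, plus strand) encodes the inducible heme oxygenase, which opens heme to biliverdin, iron and carbon monoxide. It measured 473, 1066 and 1070 CPM at 5 mM and 160, 348 and 514 CPM at 25 mM. Replicate 1 of 5 mM was low beside the other 5 mM samples and lay below 25 mM replicate 3, so the groups overlapped despite the most negative log2 difference of the members, -1.35 ± 0.46 (edgeR, unadjusted p = 0.0171, FDR = 0.107; exact permutation p = 0.2). Nqo1 (chromosome 8, 107388225 to 107403206, minus strand), which reduces quinones by a pair of electrons at once, measured 69.5, 92.2 and 110 CPM at 5 mM and 35.5, 65.3 and 70.2 CPM at 25 mM. The overlap again came from 5 mM replicate 1 and 25 mM replicate 3, which nearly coincided, and the log2 difference was -0.67 ± 0.28 (edgeR, unadjusted p = 0.0463, FDR = 0.167).

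Mt1 (chromosome 8, 94179082 to 94180327, plus strand) and Mt2 (chromosome 8, 94172664 to 94173568, plus strand) are neighboring genes of the metal-binding metallothioneins. Mt1 measured 31.5, 92.9 and 77.0 CPM at 5 mM and 45.2, 45.9 and 64.9 CPM at 25 mM. The lowest and the highest sample both belonged to 5 mM, and the log2 difference was -0.37 ± 0.37 (edgeR, FDR = 0.521). Mt2 measured 42.0, 78.6 and 68.8 CPM at 5 mM and 49.6, 56.3 and 74.5 CPM at 25 mM, with the same low 5 mM replicate 1. Its groups overlapped over most of their range, and the log2 difference was -0.07 ± 0.26 (edgeR, FDR = 0.88). A total of 432 exonic bases of Mt2 are shared with the antisense gene Gm45774, which held few counts beside it.

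**Figure D1:**
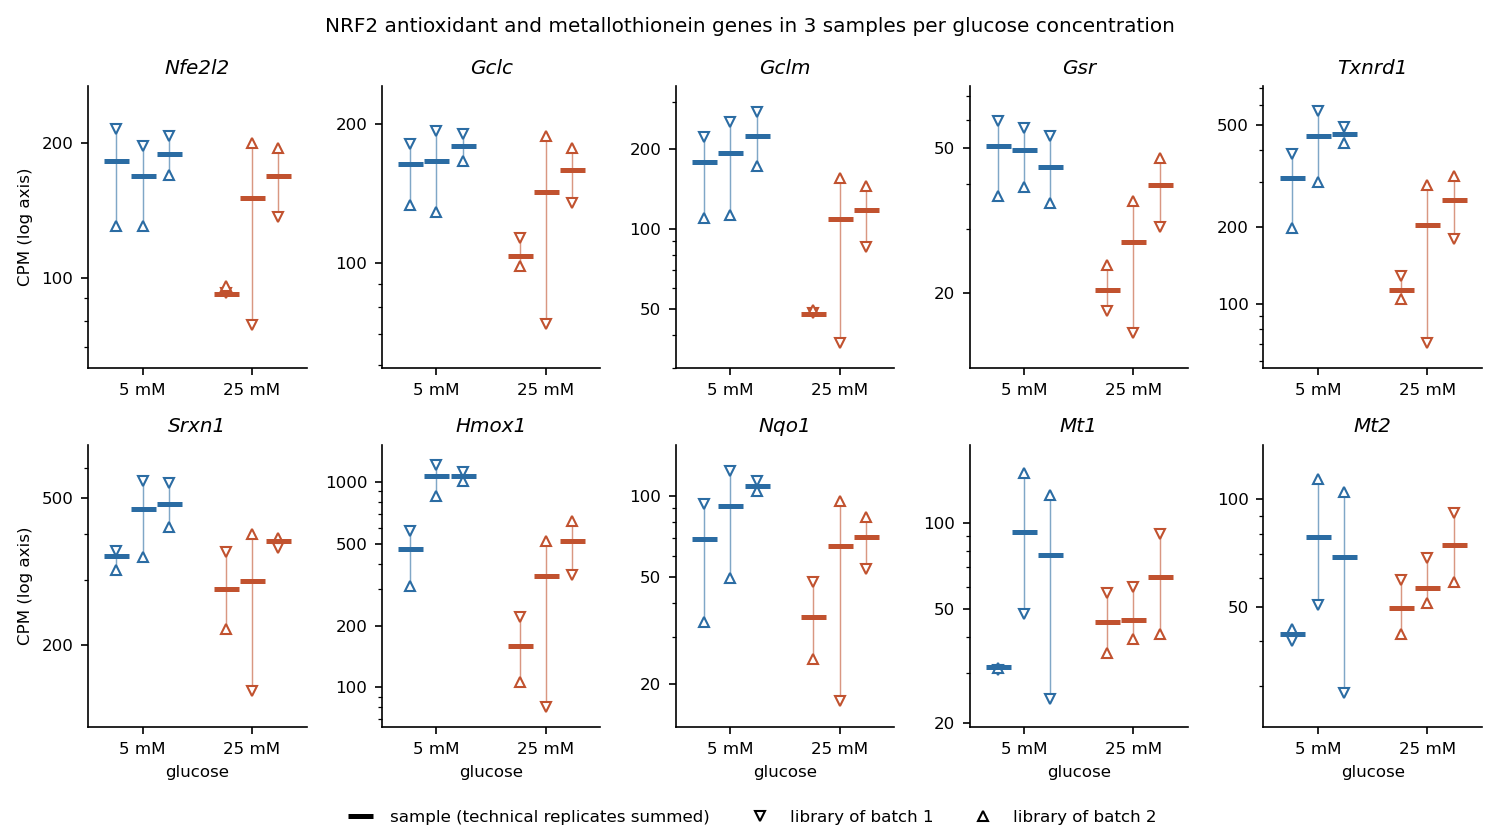
CPM on a log axis (vertical) of the 10 genes in the 3 samples at 5 mM (blue) and the 3 at 25 mM glucose (red); bars are samples with technical replicates summed, triangles are their libraries of batch 1 (pointing down) and batch 2 (pointing up), joined by a line. In Gclm the 25 mM samples lie between 47.7 and 118 CPM and the 5 mM samples between 178 and 224 CPM, whereas in Mt2 the groups overlap. The libraries of 5 mM replicate 3 lie apart at 24.3 and 125 CPM in Mt1.

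Leaving out 5 mM replicate 1, the sample that was low in Hmox1, Nqo1, Srxn1, Txnrd1, Mt1 and Mt2, changed which members passed. Without 5 mM replicate 1, edgeR called 5 members lower at an FDR under 0.05, namely Hmox1, Gclm, Srxn1, Txnrd1 and Mt1, where it called 14.9% of all genes lower. No member was called when any other sample was left out. Of all genes, 0 were called without 5 mM replicate 2 or 3 or without 25 mM replicate 1 or 2. Without 25 mM replicate 3, 206 of 21769 genes were called lower. When 25 mM replicate 2 was represented by its second technical replicate alone, an alternative chosen after seeing the data, all 10 members still had log2 differences below 0 and their median was -0.42, but 3 members rather than 5 had an unadjusted p under 0.05.

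The order of the genes was compared on levels per length, computed from the deposited transcript counts as counts per kilobase of transcript scaled to the same total in each sample (TPM). At 5 mM, Hmox1 had the highest level, 1064 ± 446 TPM (SD, n = 3), and its samples did not overlap those of the next gene, Srxn1, at 290.5 ± 57.1 TPM. Srxn1, Mt2 (288.3 ± 110 TPM), Txnrd1 (249.6 ± 56.5 TPM), Mt1 (222.0 ± 112 TPM) and Gclm (213.1 ± 32.2 TPM) overlapped each other in their samples. Nfe2l2 followed at 140.6 ± 6.15 TPM, then Nqo1 at 109.6 ± 26.3 TPM and Gclc at 97.3 ± 5.81 TPM, the latter 2 overlapping. The samples of Mt1, from 98.2 to 317.6 TPM, spanned those of Nfe2l2 and overlapped those of Nqo1 and Gclc, so that Mt1 could not be placed above these genes beyond its spread. Gsr was lowest at 46.5 ± 3.87 TPM. At 25 mM, Hmox1 (442.8 ± 228 TPM) was again highest and Gsr (28.9 ± 8.50 TPM) again lowest. There the samples of Hmox1 overlapped those of Mt2 (277.1 ± 66.1 TPM), which took second place, while Gsr did not overlap any other member.

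The libraries of each sample were then set apart by batch. In the 3 batch 1 libraries per condition, Gclm measured 223, 253 and 277 CPM at 5 mM and 48.5, 37.4 and 85.8 CPM at 25 mM. In batch 2 it measured 110, 113 and 173 CPM at 5 mM and 49.4, 156 and 145 CPM at 25 mM. The groups were well separated in batch 1 and interleaved in batch 2, where 25 mM replicates 2 and 3 lay above 5 mM replicates 1 and 2.

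Nfe2l2 followed the same course, with 215, 197 and 208 CPM at 5 mM and 92.4, 78.3 and 136 CPM at 25 mM in batch 1. In batch 2 it measured 130, 130 and 170 CPM at 5 mM and 95.8, 200 and 195 CPM at 25 mM, so that its highest values there belonged to 25 mM. Hmox1 measured 576, 1214 and 1115 CPM at 5 mM and 220, 80.2 and 354 CPM at 25 mM in batch 1. In batch 2 it measured 312, 859 and 1017 CPM at 5 mM and 106, 519 and 645 CPM at 25 mM, a smaller distance with overlap. The second library of 25 mM replicate 2 held 6.48 times the Hmox1 level of the first. It held 5.56 times the Nqo1 level and 4.16 times the Gclm level. Each was the widest gap between libraries of 1 sample for its own gene. In Mt1 the libraries of 5 mM replicate 3 differed 5.13-fold.

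In batch 1 alone, edgeR called 6 members lower at an FDR under 0.05, where it called 10.1% of all genes lower. They were Gclm (log2 difference -2.16 ± 0.32, n = 3 and 3 libraries, edgeR FDR = 0.00852), Hmox1 (-2.17), Txnrd1 (-1.96), Nqo1 (-1.50), Gsr (-1.45) and Nfe2l2 (-1.04). Gclc reached -0.83 with an FDR of 0.0503 by edgeR, and Srxn1 -0.76 with an FDR of 0.167. In batch 2 alone, edgeR called 0 genes at an FDR under 0.05, and 1 member, Mt1, had an unadjusted p under 0.05. Of the NRF2 genes, Hmox1 stood at -0.76 ± 0.66, Txnrd1 at -0.36 ± 0.44 and Gclm at -0.17 ± 0.42. Nfe2l2 (0.20 ± 0.31), Nqo1 (0.14 ± 0.55) and Gclc (0.12 ± 0.28) had log2 differences above 0 in batch 2, while Srxn1 (-0.09 ± 0.28) and Gsr (-0.06 ± 0.28) were close to 0.

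Mt1 and Mt2 showed the reverse arrangement. In batch 1, Mt1 measured 30.8, 48.2 and 24.3 CPM at 5 mM and 57.1, 59.8 and 91.7 CPM at 25 mM, and each 25 mM library lay above each 5 mM library. In batch 2, it measured 31.3, 150 and 125 CPM at 5 mM and 35.3, 39.4 and 40.9 CPM at 25 mM, with 2 of the 3 5 mM libraries far above all others. The log2 difference of Mt1 was 0.99 ± 0.31 in batch 1 (edgeR, FDR = 0.0608) and -1.40 ± 0.49 in batch 2 (edgeR, FDR = 0.398). Mt2 measured 39.9, 50.5 and 28.7 CPM at 5 mM and 59.5, 68.6 and 91.8 CPM at 25 mM in batch 1. In batch 2 it measured 43.3, 114 and 105 CPM at 5 mM and 42.0, 51.1 and 58.6 CPM at 25 mM. Its log2 difference was 0.86 ± 0.28 in batch 1 (edgeR, FDR = 0.0631) and -0.78 ± 0.36 in batch 2 (edgeR, FDR = 0.428).

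The difference between the batches was itself tested as the glucose by batch term of a fit to the 12 libraries. This term had an unadjusted p under 0.05 in 7 of the 10 members, against 16.3% of the 18725 genes tested, but no gene passed an FDR of 0.05 in that test by edgeR. For Gsr the glucose difference was 1.37 higher on the log2 scale in batch 2 than in batch 1 (edgeR, unadjusted p = 0.00093, FDR = 0.171). The corresponding values were 1.89 for Gclm (FDR = 0.193) and 1.17 for Nfe2l2 (FDR = 0.213) by edgeR, and the term was above 0 in each of the 8 genes other than the metallothioneins. For Mt1 (-2.18, FDR = 0.195) and Mt2 (-1.58, FDR = 0.198; both edgeR) it was below 0. This fit gave each biological sample its own term, so the 2 libraries of a sample were compared with each other.

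**Figure D2:**
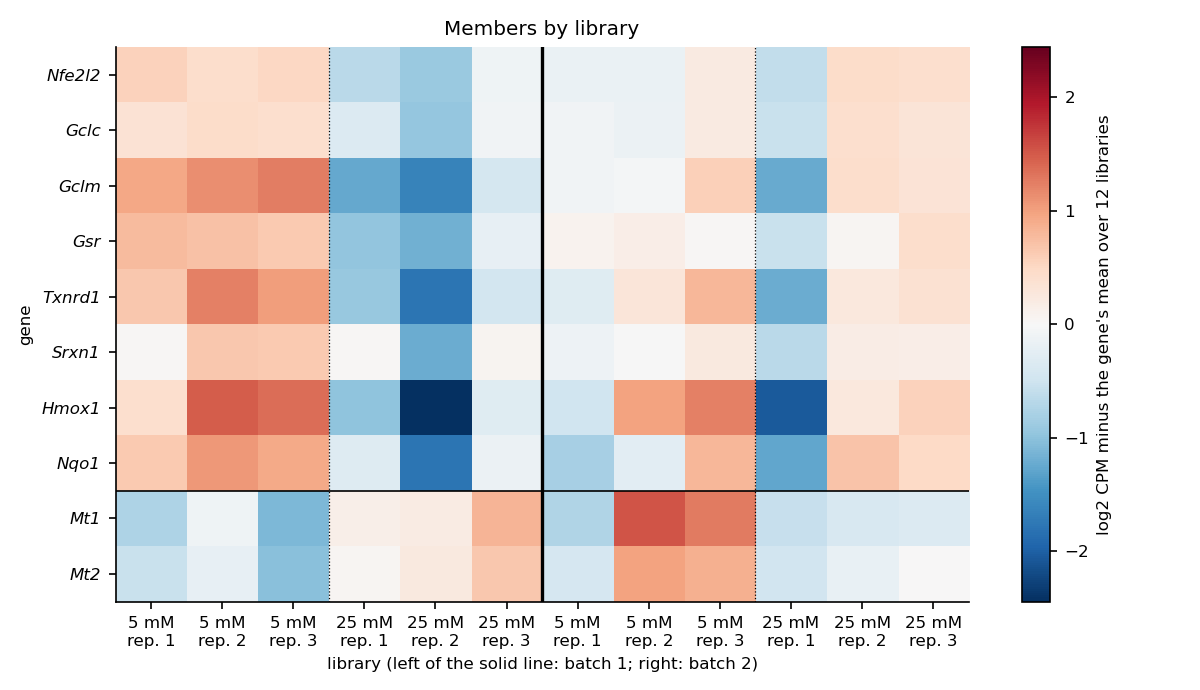
Color shows log2 CPM of each gene (rows) minus that gene's mean over the 12 libraries (columns, ordered by batch, glucose and replicate). In batch 1 the upper 8 genes are mostly red at 5 mM and blue at 25 mM, an order the lower 2, Mt1 and Mt2, invert, and in batch 2 the upper 8 show their lowest values at 25 mM replicate 1.

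**Figure D3:**
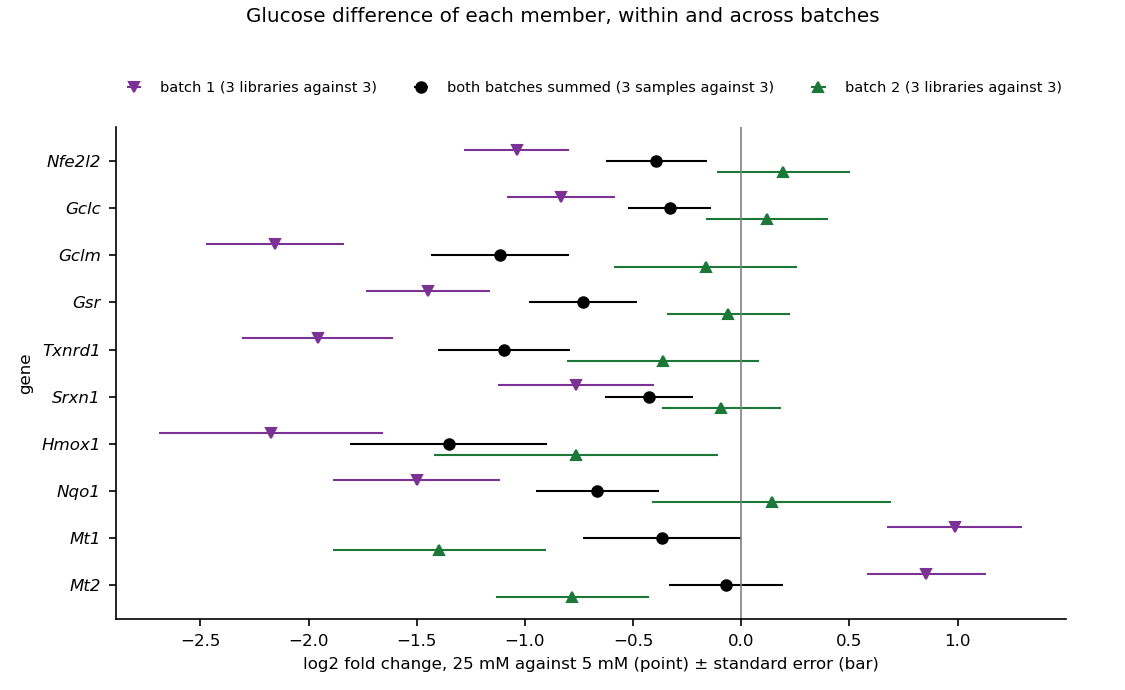
Points are log2 differences of 25 mM against 5 mM glucose (horizontal) for each member, bars are standard errors; purple marks batch 1, green batch 2 and black the samples with both batches summed. Gclm stands at -2.16 in batch 1 and -0.17 in batch 2, while Mt1 stands at 0.99 and -1.40.

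The transcript counts showed which annotated transcripts carried these values. The 10 genes had 34 transcripts in the deposited table, of which 14 held at least 10% of their gene in either group and were compared. Nqo1, Srxn1, Gclc and Hmox1 were each carried almost wholly by 1 transcript. Nfe2l2-201 held 96.3% ± 0.39 (SD, n = 3) of its gene at 5 mM and 95.1% ± 0.45 at 25 mM, and Mt1-201 held 92.0% ± 4.1 at 5 mM and 84.7% ± 1.39 at 25 mM. These were the 2 of the 14 whose groups did not overlap, against 18.7% of transcripts compared by the same rule over all genes with at least 100 transcript counts in every sample. Each had an exact permutation p of 0.1, the smallest possible, and 0.7 after adjustment over the 14. The 14 include Nqo1-201, the only transcript of its gene, whose share cannot vary. They also include both transcripts of Mt2, whose shares mirror each other. The comparison over all genes did not leave out such transcripts either. Among the transcripts under 10% of their gene, which were not compared, Gclm-204, Txnrd1-207 and Mt1-203 also had groups that did not overlap. The share of Nfe2l2-202 is the remainder of that of Nfe2l2-201 and adds no separate result. How often transcripts under 10% had groups without overlap over all genes was not computed.

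Gclm was divided between the long transcript Gclm-201 of 5589 bases and the shorter coding Gclm-206 of 1002 bases. Gclm-201 held 65.9%, 41.5% and 45.5% of the gene at 5 mM and 78.3%, 64.9% and 56.1% at 25 mM, which overlapped (exact permutation p = 0.3). In Mt2 the split moved widely within each group. Mt2-201, of 511 bases, held 16.4%, 84.3% and 82.3% of the gene at 5 mM and 58.0%, 21.4% and 26.6% at 25 mM, and the remainder was assigned to the coding Mt2-202 of 388 bases. The gene value of Mt2 ranged from 0.76 to 1.137 times its summed transcript counts among the 12 libraries. The ratio ranged from 0.646 to 1.301 for Gclm and from 0.745 to 1.284 for Gsr, of which Gsr-201 held 94.9% ± 1.37 at 5 mM and 93.1% ± 3.44 at 25 mM, and the source of these departures was not tested. With summed transcript counts in place of gene values, no member passed the FDR of 0.05 by edgeR either.

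Promoter windows of 300 bases, from 250 before to 50 after the start of transcription, were taken from RefSeq on GRCm38.p6. They were found for 7 of the 10 genes, with 9 windows because Txnrd1 has 3 annotated starts. The core of the antioxidant response element, TGACNNNGC on either strand, occurred in 5 of the 9 windows, those of Nfe2l2, Srxn1, Gclm, Mt2 and 1 start of Txnrd1, and in 12.4% of all 32851 windows of this length. The core of the metal response element, searched as TGCACNC or TGCGCNC on either strand, occurred in 4 of the 9 windows and in 25.7% of all windows. Mt1 and Gclm held 3 matches to the latter and Mt2 held 4, whereas at least 3 were found in 1.97% of all windows. The windows of Gclm, the member with the lowest FDR in batch 1, and of Mt1 and Mt2, which moved with each other and against it between batches, follow with the matches in capitals.
Gclm, chr3:122245307-122245606, plus strand: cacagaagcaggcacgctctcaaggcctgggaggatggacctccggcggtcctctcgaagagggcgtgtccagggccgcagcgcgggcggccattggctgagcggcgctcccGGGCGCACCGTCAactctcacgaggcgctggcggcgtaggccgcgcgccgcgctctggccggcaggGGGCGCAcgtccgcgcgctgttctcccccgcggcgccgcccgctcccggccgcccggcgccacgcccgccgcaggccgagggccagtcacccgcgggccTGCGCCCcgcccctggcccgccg
Mt1, chr8:94178839-94179138, plus strand: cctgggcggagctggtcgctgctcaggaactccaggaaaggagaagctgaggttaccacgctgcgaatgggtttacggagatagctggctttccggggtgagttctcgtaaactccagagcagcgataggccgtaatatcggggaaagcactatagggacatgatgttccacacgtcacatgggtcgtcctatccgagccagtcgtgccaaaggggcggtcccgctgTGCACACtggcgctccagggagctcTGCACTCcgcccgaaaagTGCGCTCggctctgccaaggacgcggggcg
Mt2, chr8:94172368-94172667, plus strand: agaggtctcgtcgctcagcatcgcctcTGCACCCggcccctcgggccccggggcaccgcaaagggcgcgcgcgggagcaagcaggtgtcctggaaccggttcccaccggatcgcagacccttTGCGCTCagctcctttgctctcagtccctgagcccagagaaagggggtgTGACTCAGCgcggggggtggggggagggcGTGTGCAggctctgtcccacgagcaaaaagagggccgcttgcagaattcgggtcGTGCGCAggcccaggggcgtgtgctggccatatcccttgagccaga
In Gclm the first capital run is an overlapping pair, a metal response element core on the minus strand followed by the antioxidant core GCACCGTCA, also read on the minus strand. The antioxidant core of Mt2, TGACTCAGC, lies on the plus strand between its metal response element cores. Mt1 held no match to the antioxidant core in this window. A match describes letters only and shows neither binding nor use of a site.

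The wider pathway was described with 87 further genes in 9 lists. Of these, 86 could be tested, and 80 had log2 differences below 0 beside 10675 of the 21061 genes tested. Their median was -0.63, but only Cat, the catalase that breaks down hydrogen peroxide, passed the FDR of 0.05, and none was called higher. Cat measured 77.0, 95.7 and 91.5 CPM at 5 mM and fell to 32.4, 47.5 and 46.9 CPM at 25 mM. The groups were well separated, and the log2 difference was -1.06 ± 0.20 (edgeR, FDR = 0.0456), in a test in which 0.513% of all genes were called lower. Cat lost its call by edgeR with summed transcript counts (FDR = 0.053), where 64 of 20105 genes were called lower. The same held without 25 mM replicate 3 (FDR = 0.0523), where 206 of 21769 genes were called lower. Cat was also not called by edgeR in batch 2 alone (-0.42, FDR = 0.508). Nor was it when 25 mM replicate 2 was represented by its second technical replicate (FDR = 0.142, edgeR). Leaving out 5 mM replicate 2 or 3 or 25 mM replicate 1 or 2 gave an FDR between 0.129 and 0.181 by edgeR. In these last settings, from batch 2 alone on, 0 of all genes were called in either direction.

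Among the 10 genes of NRF2 control, 9 had log2 differences below 0 (median -0.55). Keap1, the repressor of NRF2, measured 18.2 ± 3.93 CPM at 5 mM and 16.8 ± 3.58 CPM at 25 mM (SD, n = 3; log2 difference -0.12 ± 0.25). Bach1, which occupies the same elements as a repressor, measured 71.2 ± 3.51 CPM at 5 mM and 45.3 ± 7.48 CPM at 25 mM without overlap (-0.65 ± 0.18; edgeR, FDR = 0.0741). The small MAF partners Mafk (-1.05) and Maff (-1.04) had the largest log2 differences of this list, and the groups of both overlapped.

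All 10 genes of glutathione synthesis and reduction had log2 differences below 0, with a median of -0.61. Slc7a11, the cystine transporter that supplies cysteine for glutathione, measured 1059, 630 and 714 CPM at 5 mM and 150, 377 and 427 CPM at 25 mM. Its groups did not overlap, and its log2 difference was -1.33 ± 0.39 (edgeR, FDR = 0.0838), next to Chac1, which degrades glutathione, at -1.30. The groups of Chac1 overlapped. Of the 20 glutathione peroxidase and transferase genes, 18 were below 0 (median -0.73), with the lowest values for the transferases Gstm2 (-1.75; edgeR, FDR = 0.0581) and Mgst3 (-1.57). The groups of Mgst3 overlapped, and those of Gstm2 did not. All 13 thioredoxin and peroxiredoxin genes were below 0 (median -0.53), and the abundant peroxiredoxin Prdx1 measured 1576 ± 279 CPM at 5 mM and 787 ± 297 CPM at 25 mM (SD, n = 3; edgeR, FDR = 0.0927).

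In the list of heme, iron and quinone genes, 10 of 11 were below 0 (median -0.68), led by the ferritin light chain Ftl1 (-1.77) and the biliverdin reductase Blvrb (-1.70). All 5 superoxide dismutase and catalase genes were below 0 (median -0.54), among them extracellular Sod3 (-1.89). Of 6 genes of the pentose phosphate pathway and NADPH supply, 5 were below 0 (median -0.98). The lowest were Pgd (-1.58), whose product makes NADPH, and Tkt (-1.37), a transketolase of the branch of the pathway that makes none. All 12 other NRF2 targets were below 0 (median -0.65), with Osgin1 (-2.08) and the exporter Abcc4 (-1.70) lowest. None of the genes named in these lists other than Cat passed the FDR of 0.05. The groups of Ftl1, Blvrb, Tkt and Osgin1 overlapped, and those of Sod3, Pgd and Abcc4 did not. Ftl1 measured 239, 1636 and 1380 CPM at 5 mM and 287, 185 and 484 CPM at 25 mM. In Blvrb, Tkt and Osgin1 too, 5 mM replicate 1 lay below 25 mM replicate 3.

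The metallothionein and zinc list had the median closest to 0. Of its 9 tested genes 8 were below 0 (median -0.31), and Mt4 had no count in any sample. Mtf1, the zinc-sensing activator of metallothionein genes, stood at -0.27 ± 0.21 and Mt3, the metallothionein of the nervous system, at -0.59 ± 0.55. The zinc importer Slc39a8 had the most negative value of the list, -1.35 ± 0.32 (edgeR, FDR = 0.0645).

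By batch, the median log2 difference of the 87 further genes was -0.92 in batch 1, where 27 of the 84 tested were called lower by edgeR against 10.1% of all genes, and -0.38 in batch 2, where 0 of 85 were called. In batch 1, 71 of them were below 0, beside 9352 of all 18969 genes tested. In batch 2, 72 were below 0, beside 9800 of all 18811 genes tested.

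**Figure D4:**
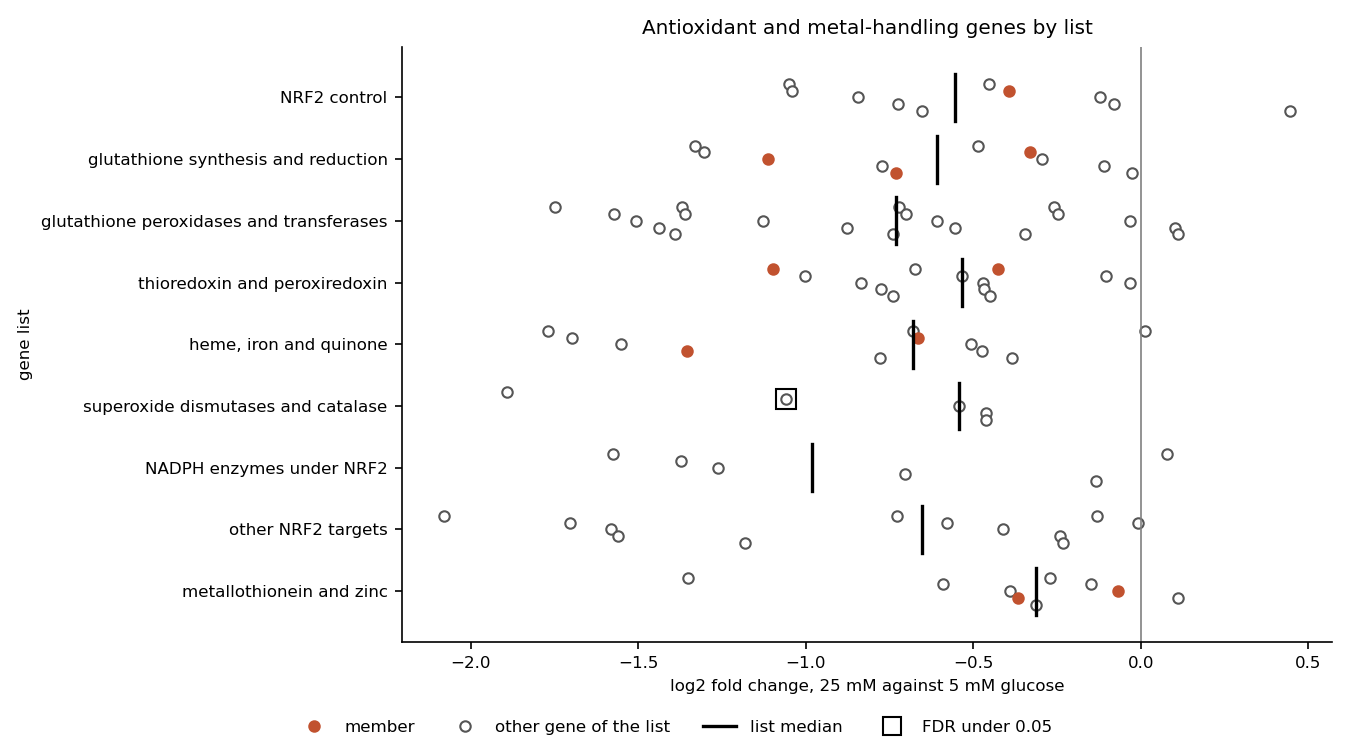
Log2 difference of 25 mM against 5 mM glucose (horizontal) for each tested gene of the 9 lists (rows); filled points are the members, open points other genes, vertical bars list medians and the square the gene at an FDR under 0.05. Of the 96 genes drawn, 90 lie left of 0, and Cat at -1.06 carries the square.

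Marker genes of several cell types were measured beside the members, and 1 gene of the vascular, microglia, astrocyte and fibroblast lists passed the FDR of 0.05 by edgeR, the collagen gene Col3a1. Of 10 vascular markers 9 had log2 differences below 0 (median -1.73), and their summed level was 1207 to 2044 CPM at 5 mM and 615 to 1093 CPM at 25 mM. All 10 microglia markers were below 0 (median -1.14), with sums of 303 to 443 CPM at 5 mM and 127 to 254 CPM at 25 mM. All 7 astrocyte and reactive glia markers were below 0 (median -0.84), from 5675 to 6572 CPM at 5 mM to 2583 to 4731 CPM at 25 mM, and so were all 6 fibroblast and matrix markers (median -1.21), from 199 to 222 CPM to 37.7 to 145 CPM. No marker of these lists was at 0 in all samples. Müller glia markers were divided, with 6 above and 4 below 0. Of 10 markers of bipolar, amacrine and ganglion cells, 7 were below 0 (median -0.15) and 0 passed the FDR, with sums of 1368 to 1432 CPM at 5 mM and 1011 to 1160 CPM at 25 mM, which did not overlap. In batch 1 the median of this list was 0.06 and its sums overlapped, and in batch 2 the median was -0.64 and they did not. The medians of the vascular and microglia markers were -2.72 and -1.45 in batch 1 and -0.70 and -0.86 in batch 2. The part of these cells in the difference of the NRF2 genes was not tested.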

How the data were processed

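RNA of 12 libraries of mouse retinal explants (SMARTer stranded kit) was analysed from 2 tables. The authors deposited expected counts (estimated counts) per gene and per transcript, not normalized between libraries. The build in the submitters' processing notes is GRCm38, and the counting tool, annotation and strand setting are not given in the sources used here. Symbols came from GENCODE M21, which matched 90.8% of gene identifiers. Technical replicates were summed, rounded to whole numbers, filtered with filterByExpr, scaled by TMM and tested with edgeR 4.0.16 (quasi-likelihood, as in its version 3) under R 4.3.3. Samples were grouped by labelled glucose concentration.

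Levels per length used whole transcript lengths of GENCODE M21. Transcript shares were compared by a two-sided exact permutation test over 6 samples. DESeq2 1.42.0, limma 3.58.1 (voom) and Python 3.11.15 served for alternatives and plots. The members and lists were chosen with earlier results of these data known. Genes named were the members, Keap1, Bach1, Mtf1, Mt3, called genes of a list and its 2 largest differences; others were chosen after their values were seen. Library totals limit counting error only, since amplified reads without molecular identifiers are not independent molecules.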

Additional observations from a re-analysis of the deposited data

How the results depend on the processing

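The log2 differences of the 10 members were recomputed under 22 alternatives, 1 of them added after seeing the data. Of 220 values, 186 kept their direction and stayed above an FDR of 0.05, 24 kept it and passed that threshold, and 10 changed sign. Those that changed sign were Nfe2l2 (0.20), Nqo1 (0.14) and Gclc (0.12) in batch 2 alone, Mt1 (0.99) and Mt2 (0.86) in batch 1 alone, and Mt2 with 12 libraries as separate samples (0.047), with a correction for GC content and length (0.10), with that correction and a replicate block (0.086), without 5 mM replicate 2 (0.11) and without 25 mM replicate 1 (0.06). With 1 sample left out, Mt2 lay between -0.29 and 0.11. The median of the members was -1.24 in batch 1 alone and -0.13 in batch 2 alone, and between -0.71 and -0.37 when 1 sample was left out.

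Of the members, 3 passed an FDR of 0.05 with DESeq2 and 3 with no filter on low counts, 6 in batch 1 alone, 4 with the GC and length correction and a replicate block, and 0 to 5 when 1 sample was left out. All these members were called lower at 25 mM. Of all genes, 9.54% were called lower with DESeq2, 10.1% in batch 1 alone and 14.9% without 5 mM replicate 1. With no filter 1221 of 35141 genes were called lower, and with the correction and block 1571 of 21061. Over all genes, 417 passed in the main comparison, 3489 with DESeq2, 1979 with no filter, 2918 with 12 libraries, 3279 in batch 1 alone, 0 in batch 2 alone, 2297 with the GC and length correction, 2740 with that and a replicate block, 0 when 25 mM replicate 2 was represented by its second technical replicate, and 0 to 5845 when 1 sample was left out. With the stricter FDR of 0.01 and at least a 2-fold difference, 0 genes passed in the main comparison (6052 had an unadjusted p under 0.05), 1387 with DESeq2, 275 with no filter, 109 with 12 libraries, 367 in batch 1 alone, 98 with the GC and length correction, 280 with that and a replicate block, and 0 to 108 when 1 sample was left out. The causes were not tested.

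The replicate numbers shared by the groups were not found to pair the samples: deviations of same-numbered samples correlated at -0.01, -0.45 and 0.29. With a replicate block, 990 genes and 3 members (Hmox1, Gclm and Txnrd1) passed an FDR of 0.05 and 0 genes the stricter threshold, and the median of the members was -0.57. The 3 members were called lower, as were 585 of the 21061 genes tested. Leaving out a sample other than 5 mM replicate 1 or 25 mM replicate 3 left 0 genes called.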
